A study of Mus musculus with 8 samples.

Results

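Blood stem and progenitor cells choose between lineages with a small set of transcription factors, and the 10 genes described here encode factors of that kind: *Gata1*, *Gata2*, *Gata3*, *Spi1*, *Cebpa*, *Cebpb*, *Cebpe*, *Gfi1*, *Gfi1b* and *Irf8*. They were chosen by name from the 54532 genes of the table, with earlier results of these data known. All 10 had enough reads to be among the 13560 genes tested. RNA-Seq was performed on 4 samples each of *Zeb1*-/- EpCAM+ and *Zeb1*-/- EpCAM- LSK cells, that is, Lin- SCA-1+ C-KIT+ bone marrow cells, the gate that holds hematopoietic stem and progenitor cells. Both fractions came from *Zeb1* fl/fl; Mx1-Cre+/- mice on a C57BL/6 background, aged 8 to 12 weeks, that had received pIpC, and cells were taken 14 days after the last dose. *Zeb1* encodes a zinc finger repressor, EpCAM is an adhesion molecule of epithelial cells, and the comparison asks which genes differ between deleted cells that carry EpCAM and those that do not. No library came from mice with intact *Zeb1*, so each difference below is between 2 deleted fractions. Mx1-Cre is switched on by interferon and also acts in cells of the bone marrow niche and in other tissues.

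Each library held between 14114491 and 17073546 reads counted on genes. *Epcam*, the sorted marker, had 2818 to 3580 counts in EpCAM+ and 17 to 144 counts in EpCAM- libraries, and *Zeb1* had 261 to 373 and 129 to 214 counts. Counts over a whole gene do not show whether the floxed part of *Zeb1* was removed. Among 12 markers of the LSK gate and its stem cells, 10 were higher in EpCAM+ libraries and none was lower. Of all tested genes, 21.8% were higher and 20.8% lower. Log2 fold changes were 1.20 for *Meis1*, 1.91 for *Hlf* and 2.38 for *Mecom*. The epithelial keratins *Krt5* and *Krt14* and the stromal collagen *Col1a1* were at 0 counts in all 8 libraries, and another collagen, *Col1a2*, had 1 to 12 and 1 to 8 counts. The stromal chemokine *Cxcl12* had 0 to 2 counts in EpCAM+ and 1 to 31 in EpCAM- libraries. *Krt18*, a keratin of simple epithelia outside the list, had 177 ± 11.3 CPM (SD, n = 4) in EpCAM+ and 80.6 ± 10.7 CPM (SD, n = 4) in EpCAM- libraries, and *Cdh1*, the gene of E-cadherin, was higher in EpCAM+ libraries (log2 fold change 1.34). Markers of B and plasma cells summed to 300 to 3725 CPM (reads of a gene scaled to the size of the library) in EpCAM+ and 51.6 to 90.2 CPM in EpCAM- libraries, with the highest sum in EpCAM+ replicate 1. Of the 8 tested B and plasma cell markers 4 were higher and none lower, namely *Jchain*, *Mzb1*, *Ms4a1* and *Cd79a*, while *Prdm1* had too few reads for edgeR's filter. The part of such cells in the values below was not tested.

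As background, GATA1 drives the red cell and platelet lineages, and GATA2, which it replaces on many sites as cells mature, keeps stem cells and drives mast cells. GATA3 is needed for T cells and type 2 innate lymphoid cells. PU.1, the product of *Spi1*, opposes GATA1 and directs cells to the myeloid and lymphoid lineages. C/EBPα starts the granulocyte and monocyte program, C/EBPβ acts in emergency granulopoiesis and macrophages, and C/EBPε in late granulocyte maturation. GFI1 and GFI1B are related repressors, of which GFI1 acts in neutrophil and lymphoid cells and GFI1B in the red cell and platelet lineages, and IRF8 is needed for monocytes and dendritic cells.

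The promoters of *Gfi1b*, *Gata1* and *Gata3* are shown as examples, because these genes differed between the fractions and their promoters differ in the letters they hold for factors of this group. Each run is the 250 bases before a transcription start, 5′ to 3′ on the gene's own strand, from RefSeq on GRCm38.p6, and capitals mark the matches to the searched motifs. The *Gfi1b* run is chr2:28621983-28622232 (minus strand), the *Gata1* run chrX:7967911-7968160 (minus strand) and the *Gata3* run chr2:9878601-9878850 (minus strand).
Gfi1b: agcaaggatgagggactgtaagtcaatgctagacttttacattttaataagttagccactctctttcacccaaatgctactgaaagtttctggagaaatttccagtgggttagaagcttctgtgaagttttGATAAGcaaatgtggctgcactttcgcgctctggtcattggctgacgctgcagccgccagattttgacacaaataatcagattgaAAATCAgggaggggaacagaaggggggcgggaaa
Gata1: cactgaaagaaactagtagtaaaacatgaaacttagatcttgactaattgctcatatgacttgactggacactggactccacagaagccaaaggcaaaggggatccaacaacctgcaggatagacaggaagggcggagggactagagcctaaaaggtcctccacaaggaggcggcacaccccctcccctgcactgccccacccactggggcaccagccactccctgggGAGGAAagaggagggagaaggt
Gata3: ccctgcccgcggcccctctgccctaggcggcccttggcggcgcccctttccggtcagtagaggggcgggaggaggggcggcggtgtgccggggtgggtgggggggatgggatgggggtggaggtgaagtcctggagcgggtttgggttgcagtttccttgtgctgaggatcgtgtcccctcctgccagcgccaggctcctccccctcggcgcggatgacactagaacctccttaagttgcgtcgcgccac
The *Gfi1b* promoter held GATAAG, a motif of the GATA factors, 119 bases before the start and AAATCA, the core of the motif of GFI1 and GFI1B themselves, 34 bases before it. In the *Gata1* promoter a single match was found, GAGGAA, a core of the PU.1 motif, 22 bases before the start. The *Gata3* promoter held no match to any of the 6 motifs. The motifs were searched on both strands of 250 bases before each start, and the shares of all 32851 promoters with a match were 6.55% for GATAAG, 9.99% for AGATAA, which can overlap GATAAG, 12.4% for AAATCA, 23.3% for GAGGAA, 9.56% for the C/EBP motif TTGCNNAA and 17.2% for CAGGTG, an E-box of the kind that ZEB1 binds. CAGGTG was found in a promoter of *Gfi1*, on the reverse strand 42 bases before the start. The same promoter held the C/EBP motif 143 bases before the start, and the other *Gfi1* promoter held no match. A promoter of *Irf8* held AAATCA on the reverse strand 175 bases before the start. The other *Irf8* promoter held AAATCA on the reverse strand 226 bases before the start and CAGGTG 205 bases before it. Promoters of 8 members were in the RefSeq table, 11 in all, and those of *Gata2*, *Cebpa* and *Cebpb* held no match. A match is a run of letters and not a bound site.

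Between the fractions, 6 of the 10 factors differed, against 42.6% of all tested genes (edgeR's quasi-likelihood test, Benjamini-Hochberg adjusted p under 0.05 over all tested genes). One of them, *Gata3*, was higher in EpCAM+ cells (21.8% of all tested genes were), and 5 were lower: *Gata1*, *Gfi1b*, *Cebpa*, *Cebpb* and *Cebpe* (20.8% of all tested genes were lower). The libraries of the fractions did not overlap for these 6 factors, nor for 40.1% of tested genes. *Gata2*, *Spi1*, *Gfi1* and *Irf8* did not pass the test. Counts of listed genes below are to be read beside these shares over all tested genes. Over all tested genes the median log2 fold change was 0.02, with 2961 called higher and 2818 lower. It was 0.11 with upper-quartile scaling (3642 higher and 2083 lower) and 0.11 with library totals (3476 higher and 2066 lower). In bulk samples such as these, fewer cells of one type and less RNA of a gene per cell cannot be told apart.

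**Figure D1:**
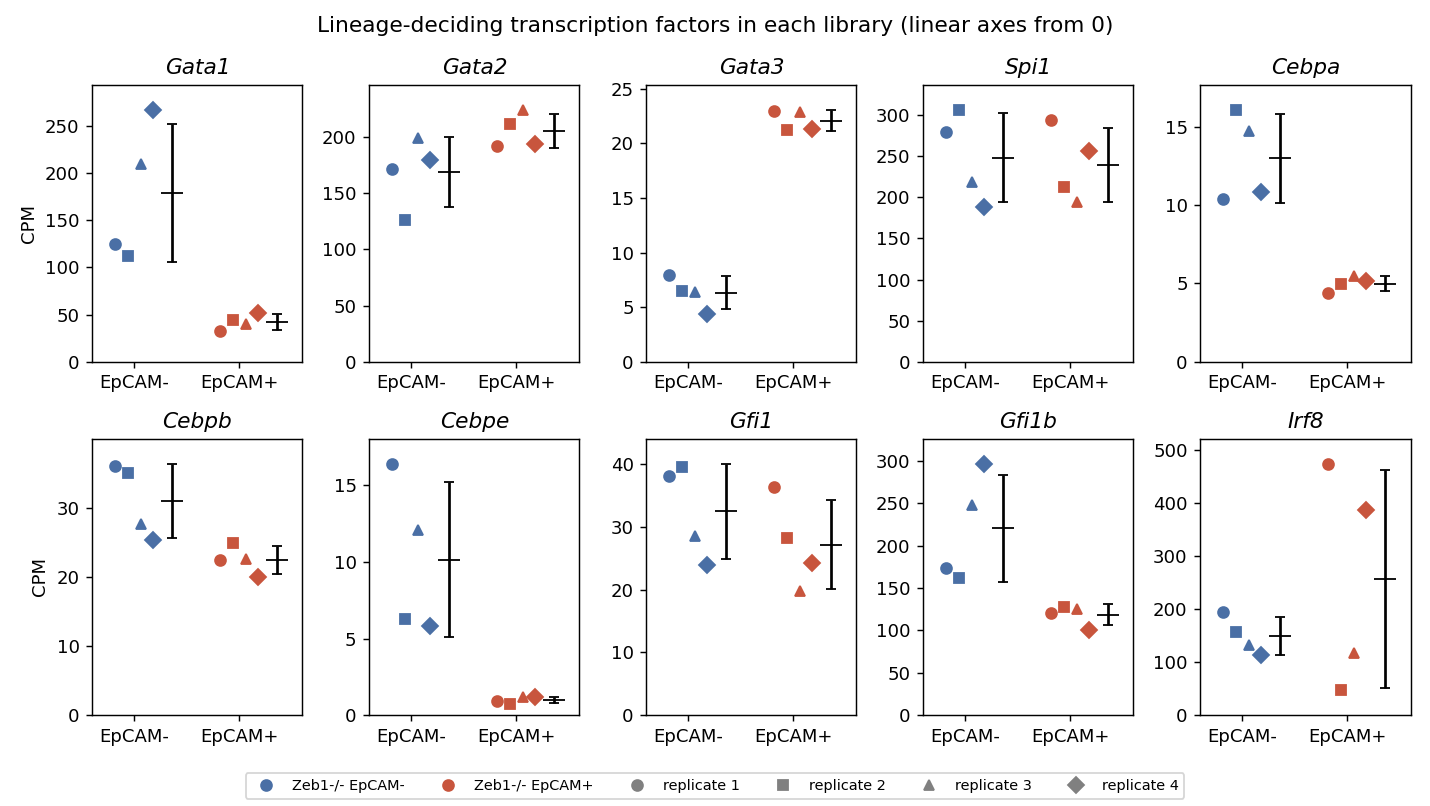
CPM of each of the 10 factors (linear y axes from 0, a scale for each factor) in the 4 EpCAM- and 4 EpCAM+ libraries. Each point is a library with its shape giving the replicate number, and the black bars give the mean and SD of a fraction. *Gata1*, *Cebpa*, *Cebpb*, *Cebpe* and *Gfi1b* lie lower in all EpCAM+ libraries and *Gata3* higher, while *Irf8* in EpCAM+ libraries runs from 48.4 to 475 CPM.

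*Gata1* (ENSMUSG00000031162, X:7959260-7978071 of GRCm38) had 32.2, 44.4, 40.2 and 51.6 CPM in EpCAM+ replicates 1 to 4 and 125, 112, 210 and 267 CPM in EpCAM- replicates 1 to 4. All EpCAM- libraries were above all EpCAM+ libraries, and within EpCAM- replicates 3 and 4 stood above replicates 1 and 2. The mean was 42.1 ± 8.10 CPM (SD, n = 4) against 178 ± 73.1 CPM (SD, n = 4), or 4.24-fold lower in EpCAM+ (log2 fold change -2.08, standard error 0.27, edgeR adjusted p = 0.000397). The counts behind these values were 492 to 795 and 1513 to 3626. *Gata2* (ENSMUSG00000015053, 6:88193891-88207032) had 192, 211, 224 and 194 CPM in EpCAM+ and 172, 126, 199 and 180 CPM in EpCAM- libraries. The fractions overlapped, though EpCAM+ was the higher in each of the 4 pairs of libraries with the same number. Its log2 fold change of 0.28 (standard error 0.13) missed the threshold (edgeR adjusted p = 0.0960). In a fit with a block for the replicate number it was 0.30 and passed (edgeR adjusted p = 0.0434). *Gata3* (ENSMUSG00000015619, 2:9857078-9890034) had 22.9, 21.2, 22.9 and 21.3 CPM in EpCAM+ and 7.99, 6.51, 6.42 and 4.34 CPM in EpCAM- libraries. The EpCAM+ libraries lay close together and well above the EpCAM- libraries, of which replicate 4 was lowest. *Gata3* was thereby 3.49-fold higher in EpCAM+ (log2 fold change 1.80, standard error 0.16, edgeR adjusted p = 0.000137), the opposite direction to *Gata1*.

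Genes known to respond to GATA1 in red cell precursors and megakaryocytes were divided. Of 15 tested, 6 were lower in EpCAM+ cells and 2 higher (median log2 fold change -0.15). Those that fell belong to the red cell lineage, and among them *Rhd* (-5.70) and *Ermap* (-5.39) encode surface proteins of red cells, *Epor* (-2.72) the erythropoietin receptor, *Car1* a carbonic anhydrase and *Trim10* a protein of red cell maturation. The platelet gene *Gp9* (0.85) rose. *Slc4a1*, *Alas2* and *Gp1bb* had too few reads for edgeR's filter. The list summed to 2758, 3266, 4547 and 3304 CPM in EpCAM+ and 4590, 4509, 8896 and 11292 CPM in EpCAM- replicates 1 to 4, so that the EpCAM- libraries with the most *Gata1* also had the highest sums. The part of more advanced red cell precursors in the *Gata1* value was not tested.

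Of 9 tested genes of mast cells and basophils, which GATA2 is known to drive, 5 were lower in EpCAM+ cells and 1 higher (median log2 fold change -1.82), although *Gata2* itself did not pass the test. *Hdc*, which makes histamine, fell by 4.08 on the log2 scale, *Il1rl1*, the IL-33 receptor, by 3.77, *Ms4a2*, a chain of the IgE receptor, by 3.32 and *Cpa3*, a mast cell protease, by 2.27. *Kit*, the stem cell factor receptor and a gate marker, was the one that rose, a call that was lost when EpCAM- replicate 2, 3 or 4 or EpCAM+ replicate 1 or 3 was left out. *Cma1* and *Tpsb2*, proteases of mature mast cells, had no count in any EpCAM+ library, with 10 to 220 and 0 to 159 counts in EpCAM- libraries. They did not pass edgeR's filter, and DESeq2 called both lower in EpCAM+.

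Of 14 tested partners of GATA1 and GATA2, 5 were higher and 2 lower (median log2 fold change 0.13). With a library left out, 5 to 7 of the list were called. *Klf1*, the red cell factor that acts with GATA1, fell by 4.21 on the log2 scale (edgeR adjusted p = 0.000134), and *Tcf3*, which encodes the E proteins of the complex, fell by 0.51. *Lmo2* (0.42), a bridging subunit of the complex, and *Nfe2* (0.39), a factor of platelet formation, rose. *Tal1* and *Zfpm1*, which encode the E-box factor and the FOG1 cofactor of the complex, had log2 fold changes of -0.02 and -0.10 and did not pass.

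Genes of T and innate lymphoid cells, which need GATA3, had few reads. Only 3 of 14 passed edgeR's filter, *Icos* (24 to 72 counts over the 8 libraries), *Thy1* (7 to 59) and *Cd28* (2 to 32), and none was called by edgeR or limma, with 0 at an unadjusted p under 0.05 in edgeR. DESeq2, which tested more of them, called 2, *Cd5* and *Il2rb*, both higher in EpCAM+, and edgeR with the replicate block called 1, *Thy1*. *Cd3e*, a chain of the T cell receptor complex, had 0 to 1 counts in EpCAM+ and 0 in EpCAM- libraries, and *Il5* and *Il13*, cytokines of type 2 innate lymphoid cells, had 0 counts in all 8. *Gata3*, by contrast, had 329 to 410 counts in EpCAM+ and 59 to 128 in EpCAM- libraries. Of 13 tested factors of the lymphoid lineages, 7 were higher in EpCAM+ cells and none lower (median log2 fold change 0.49), among them *Tcf7* (2.64), *Tox* (2.55), *Rora* (1.88) and *Id3* (1.58). *Pax5*, *Ebf1*, *Lef1*, *Bcl11b* and *Ikzf3*, which mark commitment to B or T cells or act later in them, had too few reads for edgeR's filter. DESeq2, which tests genes with fewer reads, called *Ikzf3* higher in EpCAM+ (6 to 45 counts against 0 to 1).

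*Spi1* (ENSMUSG00000002111, 2:91082390-91115756) had 295, 213, 195 and 256 CPM in EpCAM+ and 280, 306, 219 and 188 CPM in EpCAM- libraries. The fractions covered nearly the same range. Its log2 fold change was -0.05 (standard error 0.17, edgeR adjusted p = 0.827), with a sign that turns under upper-quartile scaling or library totals (0.03 for each). Beside this level of *Spi1*, 6 of 13 tested genes that PU.1 is known to activate were lower in EpCAM+ cells and 1 was higher (median log2 fold change -0.37). *Csf1r*, the receptor of macrophage colony-stimulating factor, fell by 3.71 on the log2 scale and *Fcer1g*, an Fc receptor chain, by 1.11. *Lyz2*, a lysozyme, rose by 0.68, and *Fcgr1* had too few reads for edgeR's filter.

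The C/EBP genes were lower in EpCAM+ cells, each to a different extent. *Cebpa* (ENSMUSG00000034957, 7:35119293-35121928) had 4.38, 4.99, 5.48 and 5.12 CPM in EpCAM+ and 10.4, 16.1, 14.7 and 10.8 CPM in EpCAM- libraries. No library of one fraction reached the other, and *Cebpa* was lower in EpCAM+ (log2 fold change -1.38, standard error 0.18, edgeR adjusted p = 0.000405). *Cebpb* (ENSMUSG00000056501, 2:167688915-167690418) had 22.4, 24.9, 22.6 and 20.0 CPM in EpCAM+ and 36.1, 35.0, 27.6 and 25.3 CPM in EpCAM- libraries. The gap between the fractions was narrow, 24.9 to 25.3 CPM, and the log2 fold change was -0.46 (standard error 0.13, edgeR adjusted p = 0.0166). This call was lost with library totals (-0.38, edgeR adjusted p = 0.0558). *Cebpb* overlaps *Tmem189* on the opposite strand, which had 692 to 860 and 580 to 802 counts, and reads of the shared stretch cannot be told apart without strand. *Cebpe* (ENSMUSG00000052435, 14:54710360-54712174) had 0.915, 0.737, 1.17 and 1.17 CPM in EpCAM+ and 16.4, 6.29, 12.1 and 5.81 CPM in EpCAM- libraries. It was near the limit of detection in EpCAM+ (13 to 21 counts) and ran from 79 to 263 counts in EpCAM- libraries. *Cebpe* was 10.1-fold lower in EpCAM+ (log2 fold change -3.34, standard error 0.38, edgeR adjusted p = 0.000238), the largest change among the 10 factors.

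A list of granulocyte genes holds mostly granule genes of neutrophils, which C/EBPα, C/EBPε and GFI1 control. Of 15 tested, 8 were lower in EpCAM+ cells and none higher (median log2 fold change -1.91). The genes that fell include *Calr* (-0.76) and *Ms4a3*, which are not granule genes. *Elane* (-4.86) and *Prtn3* (-2.06), proteases of the primary granules, *Mpo* (-3.74), their peroxidase, and *Ms4a3* (-3.78), a membrane protein of granulocyte and monocyte progenitors, had the smallest adjusted p. *Ltf*, *Camp* and *Ngp*, genes of the later secondary granules that C/EBPε is known to activate, had log2 fold changes of -0.28, -0.19 and -0.80 and did not pass, though *Ngp* passed without EpCAM- replicate 2. *Lcn2* (-2.05) and *Mmp8* (-1.91), also genes of later granules, fell, and *Mmp9* had too few reads for edgeR's filter. The list summed to 2160, 2438, 2260 and 3032 CPM in EpCAM+ and 20776, 16064, 17625 and 13810 CPM in EpCAM- replicates 1 to 4. Within EpCAM-, replicates 1 and 3 had the highest sums and the most *Cebpe*. The part of granulocyte progenitors in the *Cebpa* and *Cebpe* values was not tested.

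*Gfi1b* (ENSMUSG00000026815, 2:28609450-28621982) had 121, 128, 125 and 101 CPM in EpCAM+ and 174, 162, 248 and 296 CPM in EpCAM- libraries. The fractions did not overlap, and EpCAM- replicates 3 and 4 were the highest, as for *Gata1*. *Gfi1b* was 1.85-fold lower in EpCAM+ (log2 fold change -0.89, standard error 0.18, edgeR adjusted p = 0.00323). *Gfi1* (ENSMUSG00000029275, 5:107716657-107726036) had 36.4, 28.2, 19.7 and 24.3 CPM in EpCAM+ and 38.0, 39.5, 28.5 and 23.8 CPM in EpCAM- libraries. The fractions overlapped over most of their range, and the log2 fold change of -0.26 (standard error 0.21) did not pass (edgeR adjusted p = 0.328). Of 8 tested corepressors of GFI1 and GFI1B, 2 were higher and 1 lower (median log2 fold change -0.0028). This is 37.5% called, against 42.6% of all tested genes. *Hdac2*, a histone deacetylase, fell by 0.37 on the log2 scale, and *Phf21a* (0.41), a subunit of the LSD1 complex, and *Rcor3* (0.30), a CoREST protein, rose. Without EpCAM+ replicate 3 only 1 of the list, *Hdac2*, was called, and *Rcor3* kept its call in 6 of 16 alternatives, with neither limma nor DESeq2 calling it. *Kdm1a*, which encodes LSD1, had a log2 fold change of -0.18 and did not pass.

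*Irf8* (ENSMUSG00000041515, 8:120736358-120756694) had 475, 48.4, 117 and 388 CPM in EpCAM+ and 196, 157, 133 and 113 CPM in EpCAM- libraries. Replicates 1 and 4 of EpCAM+ were above every EpCAM- library and replicate 2 was below every one. The highest EpCAM+ library had 9.81 times the *Irf8* of the lowest, where no other factor exceeded 1.85 times. The log2 fold change of 0.78 (standard error 0.56) did not pass (edgeR adjusted p = 0.282). Without EpCAM+ replicate 2 it was 1.12 and passed (edgeR adjusted p = 0.0415), and without EpCAM+ replicate 1 it was 0.29 (edgeR adjusted p = 0.695). It was also smaller without EpCAM+ replicate 4 (0.50), with the replicate block (0.35, edgeR adjusted p = 0.589) and with limma (0.29, limma adjusted p = 0.715). Genes of dendritic cells, a lineage that needs IRF8, were higher in EpCAM+ cells for 10 of 12 tested and lower for none (median log2 fold change 3.18). *Xcr1* (7.59), a chemokine receptor, and *Cadm1* (6.16), an adhesion molecule, belong to conventional type 1 dendritic cells, *Cd74* (6.13) encodes the invariant chain of MHC class II and *Ly6d* (4.94) marks lymphoid and plasmacytoid precursors. *Siglech* and *Tlr9*, genes of plasmacytoid dendritic cells, had too few reads for edgeR's filter, and DESeq2 called *Siglech* higher in EpCAM+ (3 to 33 counts against 0 to 5). The list summed to 11541, 1601, 3748 and 12399 CPM in EpCAM+ and 1115, 951, 781 and 675 CPM in EpCAM- replicates 1 to 4. In EpCAM+ cells the sum and *Irf8* were high in replicates 1 and 4 and lowest in replicate 2, and the part of dendritic cells in the *Irf8* value was not tested. EpCAM+ replicate 2 had less *Irf8* than each EpCAM- library and yet a higher dendritic sum. Most of the EpCAM+ sum came from *Cd74* and *Cst3* (means of 4525 and 2087 CPM), and little from *Xcr1* (81.3 CPM).

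**Figure D2:**
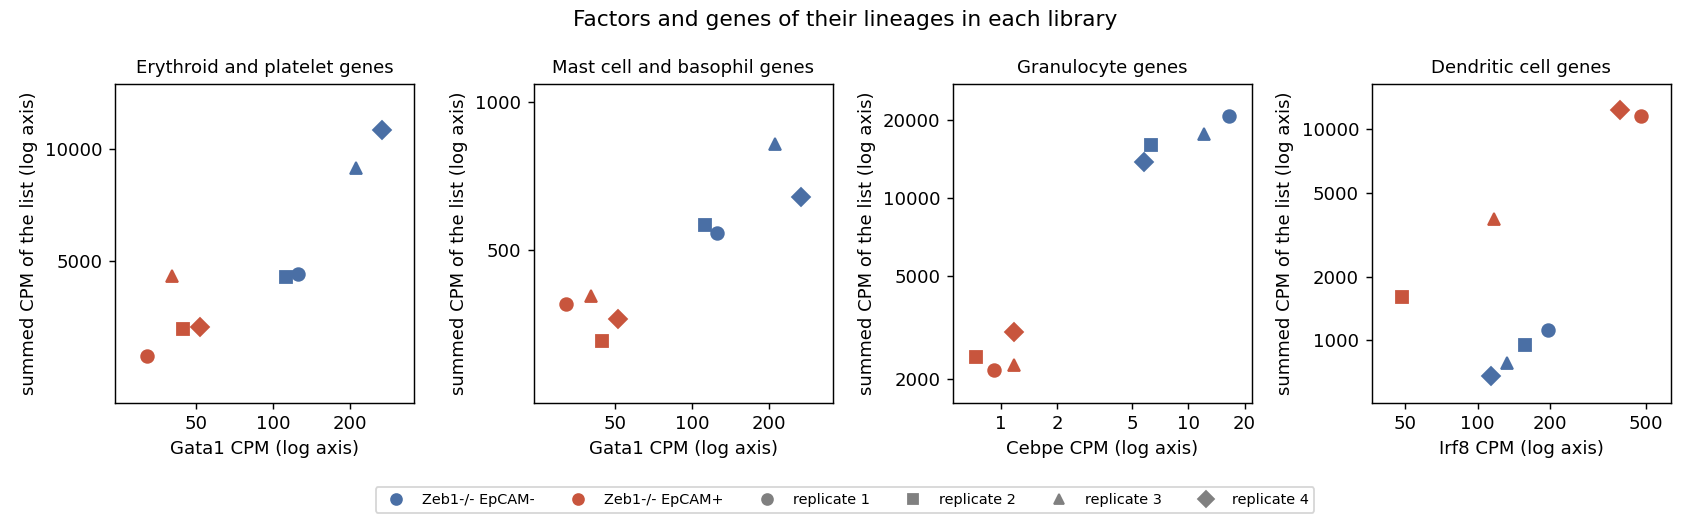
CPM of a factor (log x axis) against the summed CPM of a list of lineage genes (log y axis) in the 8 libraries, for *Gata1* with red cell and platelet genes, *Gata1* with mast cell and basophil genes, *Cebpe* with granulocyte genes and *Irf8* with dendritic cell genes. EpCAM+ and EpCAM- libraries separate along both axes for *Cebpe*, whereas *Irf8* of EpCAM+ libraries spans 48.4 to 475 CPM on both sides of the EpCAM- libraries.

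Among 13 tested partners and regulators of PU.1, the C/EBP proteins and IRF8, 5 were higher and 4 lower in EpCAM+ cells (median log2 fold change 0.27). *Trib2*, a pseudokinase, fell by 4.03 on the log2 scale, while *Trib1*, of the same family, rose by 1.65. *Cebpd*, another C/EBP gene, fell by 1.78 and *Zeb2*, the relative of *Zeb1*, by 0.60. *Id2*, an inhibitor of E proteins that dendritic and innate lymphoid cells need, rose by 3.63. *Irf4*, *Spib* and *Egr2* had too few reads for edgeR's filter, and DESeq2 called *Irf4* higher in EpCAM+ (1 to 38 counts against 0 to 1).

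**Figure D3:**
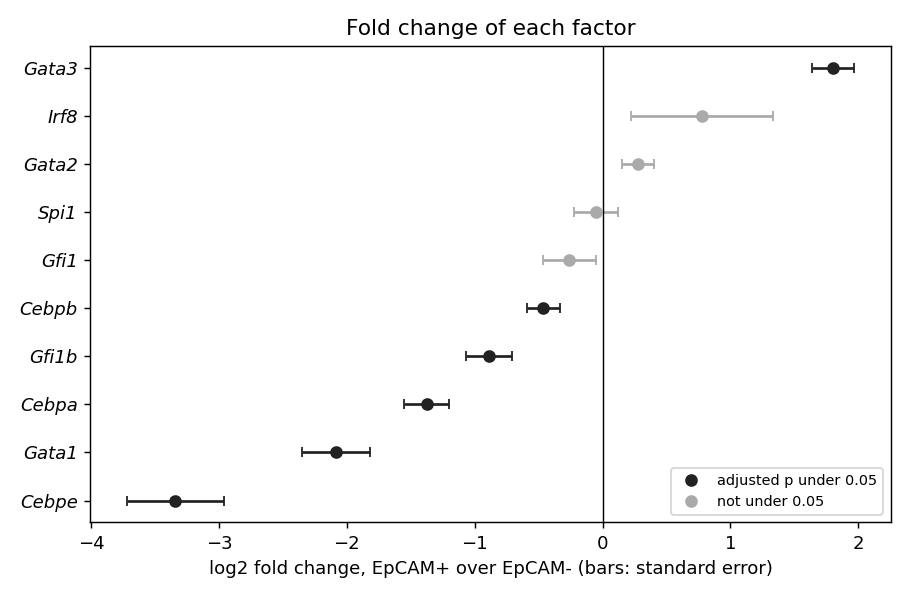
Log2 fold change (EpCAM+ over EpCAM-, x axis) of each of the 10 factors, from edgeR on 4 libraries per fraction, with bars for 1 standard error. Dark points passed an adjusted p under 0.05 and grey points did not, and the values run from -3.34 for *Cebpe* to 1.80 for *Gata3*. *Spi1* at -0.05 changes sign with the scaling.

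Levels of different genes were compared as CPM per kilobase of gene length. In EpCAM+ cells *Spi1* was highest (88.9 CPM per kilobase), followed by *Gfi1b* (64.9) and then *Gata2* (38.0), *Irf8* (36.4), *Gata1* (17.3) and *Cebpb* (14.9), where each overlapped the next in its range over libraries. *Gfi1* (8.52), *Gata3* (5.56), *Cebpa* (1.89) and *Cebpe* (0.804 CPM per kilobase) followed, each without overlap with its neighbour in the order. *Irf8*, which ran from 6.86 to 67.3 CPM per kilobase, overlapped *Gfi1* (6.19 to 11.4) as well. In EpCAM- cells *Gfi1b* (120 CPM per kilobase), *Spi1* (92.1) and *Gata1* (73.2) led with ranges that overlapped from each to the next. *Gata2* (31.3), *Irf8* (21.2) and *Cebpb* (20.6) formed a middle group of the same kind, and *Gfi1* (10.2), *Cebpe* (8.18) and *Cebpa* (4.93) a lower one, above *Gata3* (1.59 CPM per kilobase). *Gata3* thus held the last place in EpCAM- cells and *Cebpe* in EpCAM+ cells. With the deposited FPKM, which rest on other gene lengths, *Irf8* came second in EpCAM+ cells and *Cebpa* last in EpCAM- cells.

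Ratios of factor pairs known to oppose or replace each other were formed within each library from these levels and are given as a description. *Gata1* to *Gata2* was 0.371, 0.465, 0.398 and 0.589 in EpCAM+ and 1.61, 1.97, 2.34 and 3.28 in EpCAM- replicates 1 to 4. The balance of the pair lay on the *Gata2* side in every EpCAM+ library and on the *Gata1* side in every EpCAM- library. *Gata1* to *Spi1* was 0.121, 0.230, 0.229 and 0.223 in EpCAM+ and 0.495, 0.404, 1.06 and 1.57 in EpCAM- libraries, and since *Spi1* differed little, this ratio carries mainly the values of *Gata1*. *Cebpa* to *Spi1* (0.0152 to 0.0288 against 0.0379 to 0.0688) and *Cebpb* to *Cebpa* (6.83 to 8.97 against 3.28 to 6.10) also did not overlap between the fractions. The ranges overlapped for *Gata2* to *Spi1*, *Cebpa* to *Irf8*, *Gfi1* to *Irf8* and *Gfi1* to *Gfi1b*. Both ratios with *Irf8* spread widely in EpCAM+ cells, *Cebpa* to *Irf8* from 0.0247 to 0.276 and *Gfi1* to *Irf8* from 0.138 to 1.29.

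**Figure D4:**
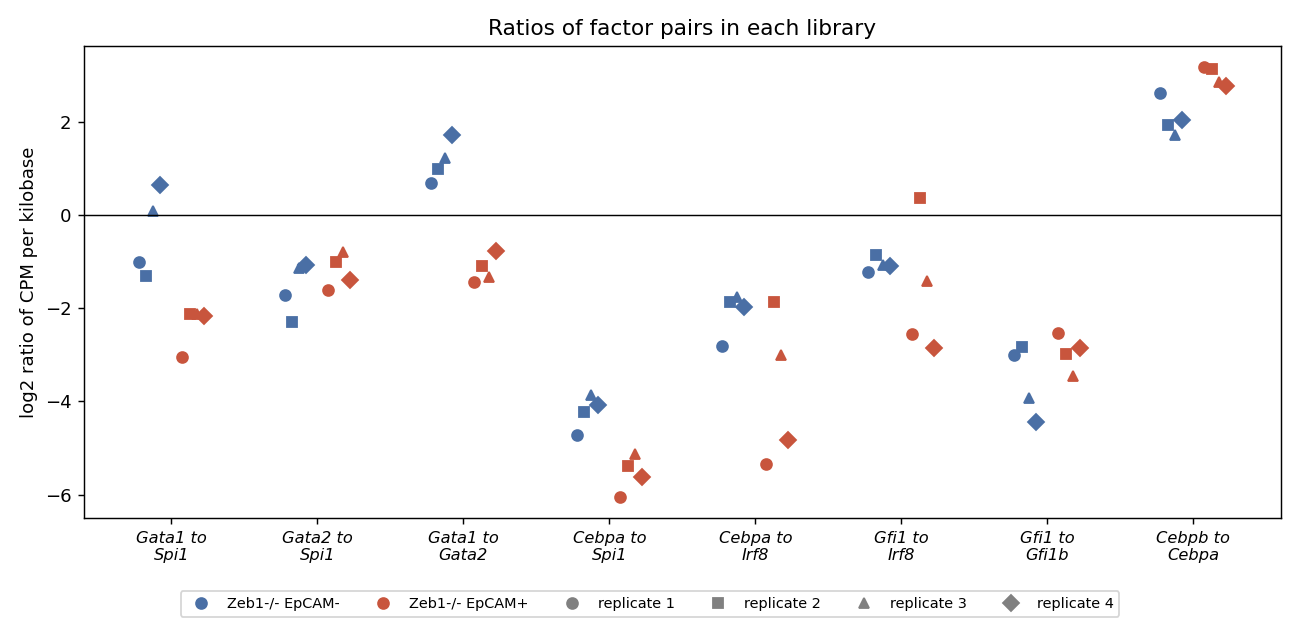
Log2 ratio of CPM per kilobase (y axis) for 8 pairs of factors in the 4 EpCAM- and 4 EpCAM+ libraries, each point a library with its shape giving the replicate number. *Gata1* to *Gata2* lies above 0 in every EpCAM- library and below 0 in every EpCAM+ library, and ratios with *Irf8* spread widest in EpCAM+ libraries.

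For 9 of the factors, the tested gene of the lists with the most similar profile over the 8 libraries was found by the root mean square difference between centred log2 CPM, among 134 genes. *Gata1* was closest to *Epor* (0.33 on the log2 scale) and *Gfi1b* to *Tcf3* (0.23). *Gata3* was closest to *Rora* (0.17), and *Gata2* to *Ssbp3* (0.13), a subunit of the LDB1 complex. *Cebpe* was closest to *Ms4a3* (0.51) and *Cebpa* to *Fcer1g* (0.26). *Spi1* was closest to *Ncf4* (0.09) and *Gfi1* to *Cd48* (0.21), 2 genes that did not pass the test either. *Irf8* was closest to *Cd28* (0.62), a gene with 2 to 32 and 2 to 24 counts. The measure grows with a gene's own spread, which was 1.05 (SD of log2 CPM) for *Irf8* and 0.36 for *Gfi1*, so its size is not comparable between factors.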

How the data were processed

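RNA-Seq libraries of 4 EpCAM+ and 4 EpCAM- samples of sorted *Zeb1*-/- LSK cells were compared. The labels name 4 mice per genotype, and p-values of the main fit measure the spread between these samples without pairing them. RNA was amplified with SMART-Seq v4, libraries were made with NEBNext Ultra, a kit that does not mark strand, and sequenced as paired ends. The authors deposited 1 table with raw read counts per gene, made per the submitters' processing notes with STAR 2.6.1d, featureCounts 1.5.0-p3 and GRCm38.p6, and FPKM per gene. Annotation release and strand setting are not given in the sources used here. The deposited FPKM imply other gene lengths than the table's length column (median ratio 0.435) and served only as an alternative for the order of levels. The authors' fold changes and p-values, made with DESeq2 1.20.0, were not used.

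Counts were filtered with filterByExpr, scaled by TMM and tested with edgeR 4.0.16 (quasi-likelihood, two-sided, Benjamini-Hochberg over all 13560 tested genes, threshold 0.05) in R 4.3.3, with standard errors taken from the F statistic. CPM were computed with TMM-scaled library sizes, and their log2 with a prior count of 2. Sums of CPM weigh a gene by its level, so the highest genes of a list can carry most of its sum. Examples are *Mpo* among granulocyte genes (mean 10435 CPM in EpCAM-) and *Jchain* among B and plasma cell markers (1094 CPM in EpCAM+). Among red cell and platelet genes they are *Car1* and *Car2* (3443 and 3063 CPM in EpCAM-). For mast cell and basophil genes, *Kit*, which rose, had 285 CPM in EpCAM+ and 208 CPM in EpCAM-. *Cpa3*, which fell, had 57.0 CPM and 275 CPM. Reads carry no molecular identifiers, so counts give counting error only. Alternatives were DESeq2 1.42.0, limma 3.58.1, other scalings and filters, the replicate number as a block and each library left out. In data simulated for this comparison with 200 genes changed 2-fold, edgeR recovered 133 of 193 tested, with 8 of 141 calls false. DESeq2 recovered 146 of 200 tested, with 32 of 178 calls false. The simulation changed few genes and paired no replicates, whereas 42.6% of tested genes were called in the data. Its rates may therefore not hold for the data. Figures were drawn with matplotlib 3.10.9 in Python 3.11.15.

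Deviations from the fraction means were shared by libraries of the same number (correlations across genes of 0.205 to 0.356 in 4 pairs, -0.216 to 0.0396 in 12 others), so the numbers pair the samples. The main fit did not use this pairing and called 5779 genes. With the replicate block 6818 were called. No library was a duplicate of another of its fraction (chi-square over its degrees of freedom, 9.80 to 91.7). The factors and gene lists were chosen with earlier results of these data known. Named genes are the 10 factors, *Epcam*, *Zeb1*, up to 4 genes of each list with the smallest adjusted p, those not tested, and the most similar listed gene. *Car1*, *Car2*, *Trim10*, *Gp9*, *Kit*, *Tal1*, *Zfpm1*, *Kdm1a*, *Ltf*, *Camp*, *Ngp*, *Lcn2*, *Mmp8*, *Calr*, *Trib1*, *Cst3*, *Krt18*, *Icos* and *Thy1* were added after their values were seen. Some genes that this rule names are not reported here.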

Additional observations from a re-analysis of the deposited data

Results flagged for a closer look

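In 36 sets of 4 libraries of 1 fraction (the 10 factors and 8 ratios in each), 1 library stood apart from the other 3 by Dixon's gap test. EpCAM+ replicate 1 had a log2 ratio of *Gata1* to *Spi1* of -3.05, with the other EpCAM+ libraries at -2.17 to -2.12. It had the lowest *Gata1* (32.2 CPM) and the highest *Spi1* (295 CPM) of the EpCAM+ libraries. Chance marks about 1 in 20 such sets.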

How the results depend on the processing

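*Gata1*, *Gata3*, *Cebpa*, *Cebpe* and *Gfi1b* were called in the same direction under all 16 alternatives. *Cebpb* was called in 15, *Gata2* in 3 (the replicate block, upper quartile at 0.37 and library totals at 0.36), *Irf8* in 1 and *Gfi1* and *Spi1* in none. Leaving out each library gave 6 to 7 called factors and -2.26 to -1.83 for *Gata1*, 1.66 to 1.93 for *Gata3* and 0.29 to 1.12 for *Irf8* on the log2 scale. *Spi1* ran from -0.17 to 0.056 with a library left out. It became positive with upper quartile (0.030), library totals (0.026), and without EpCAM- replicate 1 (0.0056), EpCAM- replicate 2 (0.056), EpCAM+ replicate 2 (0.00018) or EpCAM+ replicate 3 (0.035). Over all genes, 5779 were called, 4662 to 6039 with a library left out, and upper quartile and library totals made 63.6% and 62.7% of calls higher, against 51.2%. Of the factors, the replicate block changed the call of *Gata2* alone. Of 134 tested genes of the lists it added 10 calls, among them the 1 T and innate lymphoid gene, and ended 0. T and innate lymphoid calls, 0 above, were 2 with DESeq2, 2 with no filter, 1 with the replicate block and 0 to 2 with a library left out. Epithelial and stromal calls, 1 above, were 3 with DESeq2 and 2 with no filter. With at least 10 counts in every library, which leaves fewer genes to test, dendritic calls were 5 and B and plasma cell calls 0. GFI1 and GFI1B corepressor calls were 1 to 3 with a library left out. The cause of the other changes was not tested. Depth limits *Cebpe* in EpCAM+ (13 to 21 counts) and the T cell genes.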
